A study of Mus musculus with 32 samples.

Results

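Interferon-stimulated genes are the genes that cells switch on when interferon binds its receptor. A set of 37 such genes was taken by gene symbol, and 36 of them had a row among the 27728 genes of the count table. The remaining one, Igtp, is not analysed here. Type I interferons act through the receptor subunits IFNAR1 and IFNAR2 and the kinases JAK1 and TYK2, which phosphorylate STAT2. Phosphorylated STAT2 joins IRF9 in a complex called ISGF3, which binds a promoter motif, the interferon-stimulated response element (ISRE), found in the promoters of many interferon-stimulated genes. Blood-forming stem and progenitor cells express part of this set without infection, and the products restrict viruses by sensing foreign RNA, degrading it, blocking translation or attacking pathogen vacuoles.

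The libraries came from sorted mouse progenitors (Lin- cKit+ Sca1-), in a study of the splicing factor U2af1. The 15 fetal libraries came from E14.5 liver, without treatment. In batch A, the flox control (n = 3), U2af1(flox/flox) with no Cre, was set beside embryos that carried Vav1-Cre, a recombinase made in blood cells, with U2af1(wt/flox) (heterozygous deletion, n = 3) or with U2af1(flox/flox) (homozygous deletion, n = 3), and beside 1 library with Vav1-Cre alone. Batch B held 4 libraries of Vav1-Cre/U2af1(wt/S34F) embryos, which carry a mutant allele found in myelodysplasia, and 1 library with Vav1-Cre alone. The 17 adult libraries came from bone marrow of mice that all carried Mx1-Cre, rTA and the transgene tgU2AF1(WT). Of these, 14 came from U2af1(flox/S34F) mice given polyinosinic-polycytidylic acid (pIpC, an RNA mimic that induces interferon and so switches on Mx1-Cre), in 6 doses given every other day, and doxycycline chow (4 libraries at 1250 ppm, 6 at 2500 ppm and 4 at 10000 ppm). The other 3 libraries came from untreated U2af1(wt/wt) mice with the same 3 transgenes. Genotype, pIpC and doxycycline differ together between the dosed and the untreated mice and cannot be told apart, and the time from the last pIpC dose to harvest is not given in the sources used here. The labels do not say that replicates were separate animals, so p-values measure the spread between these libraries, which may be partly technical.

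Library totals ran from 26588099 to 71251200 counts. Levels are given as counts per 1000000 counts (CPM) with TMM-scaled library sizes, and a group with no library above 3 counts is treated as at the floor. Tests are by edgeR (quasi-likelihood, Benjamini-Hochberg adjustment over all genes tested), and a gene is called at an adjusted p under 0.05. Summed over the 36 genes, the level was 338.5 to 430.7 CPM in the flox control, 361.3 to 404.7 CPM in the heterozygous deletion and 253.3 to 265.3 CPM in the homozygous deletion. It was 383.9 to 448.1 CPM with S34F, and 356.5 and 440.4 CPM with Vav1-Cre alone in batch A and in batch B. In the adults it was 1000 to 1198 CPM without treatment, 723.8 to 791.7 CPM at 1250 ppm, 793.8 to 882.8 CPM at 2500 ppm and 835.3 to 923 CPM at 10000 ppm. The homozygous deletion was thus below every other library of batch A, and the untreated adults were above every dosed library.

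**Figure D1:**
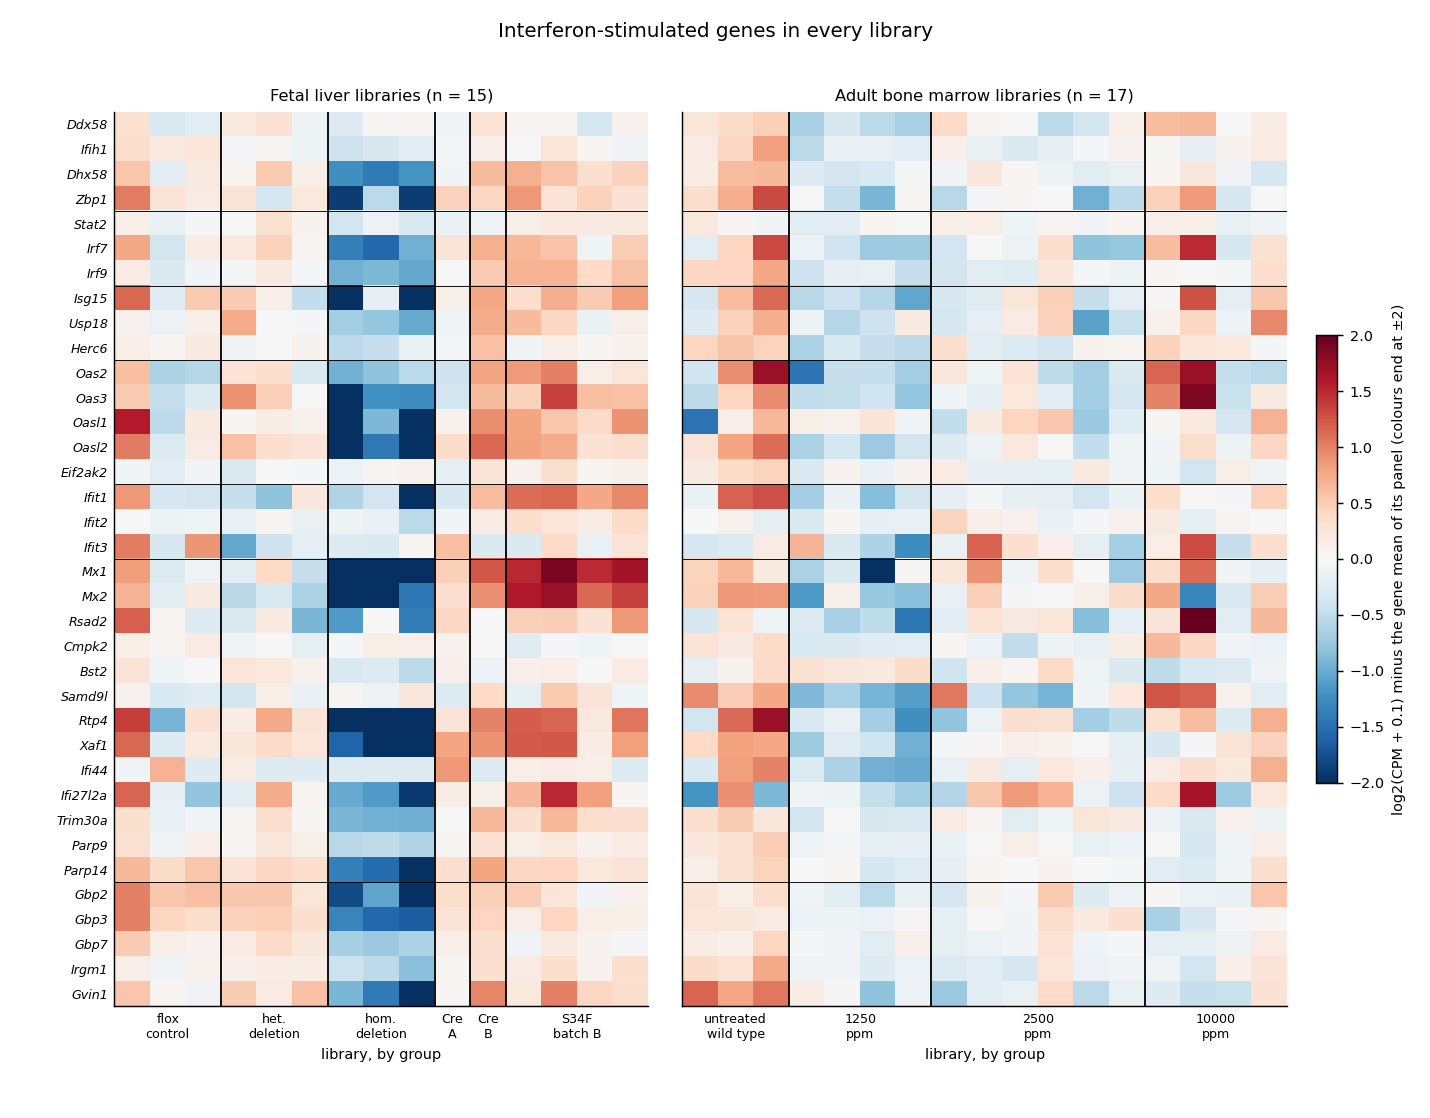
Heat map of the 36 genes (rows, grouped by role with thin lines) in each of the 15 fetal and 17 adult libraries (columns, by group; Cre A and B are the Vav1-Cre libraries), coloured by log2(CPM + 0.1) minus the gene's mean over its panel, with colours ending at 2 in either direction. The 3 homozygous deletion libraries are blue for most genes, and the untreated adult libraries are redder than the 4 libraries at 1250 ppm.

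The promoters of the members were searched for this motif. RefSeq promoter windows (GRCm38.p6, 250 bases before to 50 after the start) were found for 25 of the 36 genes. The ISRE was searched on both strands as GAAA, any 2 bases and GAAA again, which reads TTTC, any 2 bases and TTTC on the opposite strand. It was present in 15 of the 25 genes and in 3.99% of all 27025 genes with a window. The gamma-activated site, a motif of the interferon gamma response, searched as TTCNNNGAA, which is its own reverse complement, was present in 4 of the 25 and in 9.55% of all genes. A match is a description of the letters and not a shown binding site. The windows below, 80 bases before to 30 after the start, show 6 genes that were lower after homozygous deletion (Gbp3, Gbp7, Irf9, Gbp2, Trim30a and Irgm1) and 2 that did not pass the test there (Eif2ak2 and Ddx58). Capitals mark the ISRE match, and Irf9 has none in its window.
Gbp3 (chr3:142559964-142560073, plus strand): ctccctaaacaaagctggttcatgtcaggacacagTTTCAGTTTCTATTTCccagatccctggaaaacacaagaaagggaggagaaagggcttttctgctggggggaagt
Gbp7 (chr3:142530256-142530365, plus strand): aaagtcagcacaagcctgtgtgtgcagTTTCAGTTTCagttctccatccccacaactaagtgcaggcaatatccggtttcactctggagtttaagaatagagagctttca
Irf9 (chr14:55603905-55604014, plus strand): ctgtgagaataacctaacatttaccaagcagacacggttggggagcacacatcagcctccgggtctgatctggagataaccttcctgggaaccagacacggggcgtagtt
Gbp2 (chr3:142620583-142620692, plus strand): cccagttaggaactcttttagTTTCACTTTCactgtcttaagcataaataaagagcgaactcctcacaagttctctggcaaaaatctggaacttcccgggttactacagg
Trim30a (chr7:104465164-104465273, minus strand): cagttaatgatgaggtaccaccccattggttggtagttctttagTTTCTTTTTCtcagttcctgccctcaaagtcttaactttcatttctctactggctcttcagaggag
Irgm1 (chr11:48871391-48871500, minus strand): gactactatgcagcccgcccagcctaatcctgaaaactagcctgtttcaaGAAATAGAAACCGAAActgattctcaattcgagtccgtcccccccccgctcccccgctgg
Eif2ak2 (chr17:78882543-78882652, minus strand): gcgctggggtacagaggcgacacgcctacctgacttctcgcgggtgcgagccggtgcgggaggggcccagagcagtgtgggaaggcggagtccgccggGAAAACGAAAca
Ddx58 (chr4:40239796-40239905, minus strand): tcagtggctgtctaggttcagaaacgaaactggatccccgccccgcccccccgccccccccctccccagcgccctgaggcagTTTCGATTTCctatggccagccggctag
Gbp3 and Irgm1 each hold a pair of overlapping matches. In the 5 windows of called genes that hold a match it lies upstream of the start, and in Eif2ak2 and Ddx58 it lies at positions 19 and 3 downstream. These are 8 chosen windows, and this contrast of positions does not hold over the members. Ifih1, called lower, has its match at position 33 downstream, and a second window of Trim30a has it at position 3 downstream. Stat2, Isg15, Ifit1, Ifit3 and Rsad2, which did not pass the test there, have theirs upstream. Among all members with a window, 8 of the 14 called lower after homozygous deletion and 7 of the 11 others held an ISRE, so presence of the motif did not separate them.

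Homozygous deletion in the fetal liver was compared with the flox control within batch A to ask how expression differs in embryos with Vav1-Cre and both U2af1 alleles floxed; the extent of deletion in the sorted cells is not analysed here. Of the 35 members that passed the filter on low counts (all but Ifi44), 24 fell and 0 rose, where 22.4% of all 12678 genes tested fell and 41% changed in either direction. The median log2 fold change was -1.35 over the members and -0.018 over all genes. The 3 libraries of each group did not overlap in 25 members, all lower, against 25.2% of all genes. In bulk RNA, fewer cells of an expressing type and less RNA per cell cannot be told apart.

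**Figure D2:**
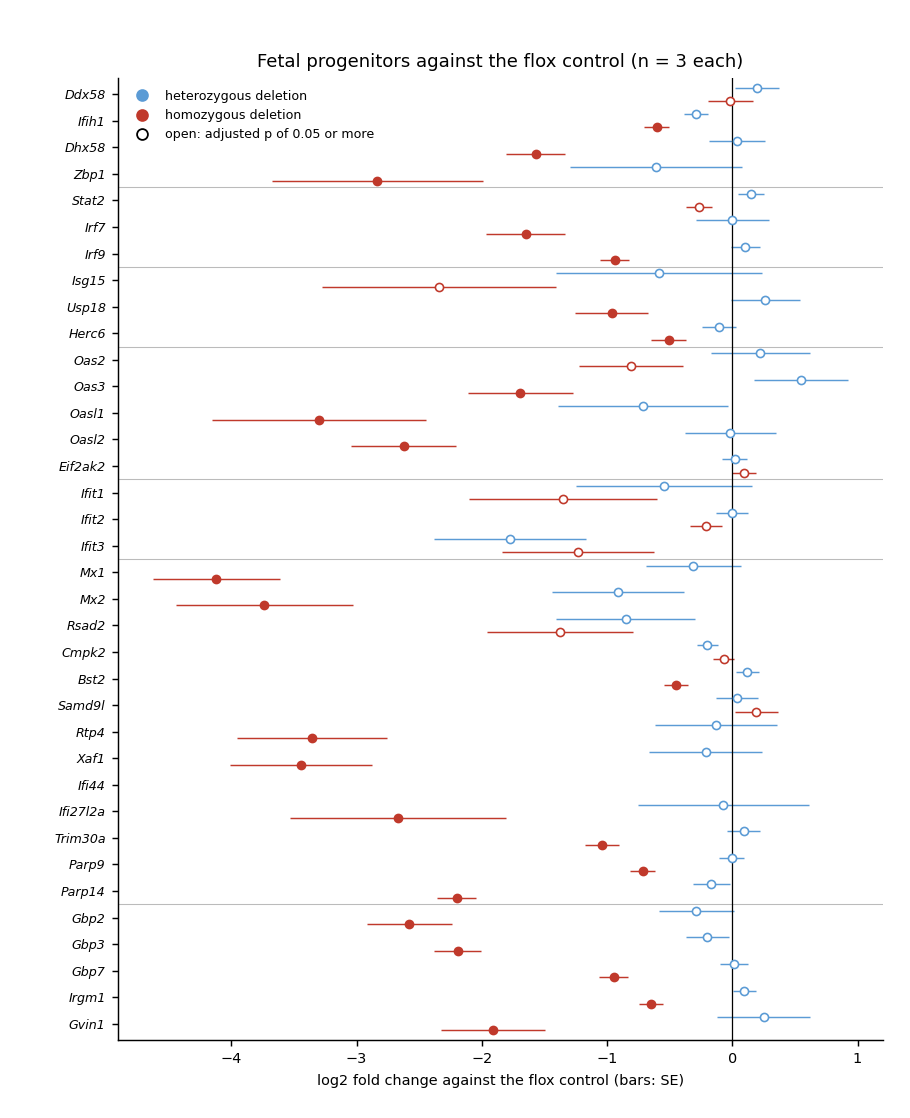
Log2 fold change (x axis, with SE bars) of each member (y axis, grouped by role) in the heterozygous (blue) and homozygous (red) deletion against the flox control, 3 libraries each; filled points passed an adjusted p of 0.05. Of the red points 24 are filled and all lie left of 0, and no blue point is filled.

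The interferon-inducible GTPases fell in 5 of 5. Gbp3, a guanylate-binding protein that coats the vacuoles of intracellular pathogens, was at 14.96, 10.1 and 9.47 CPM in the flox control, at 10.2, 10.3 and 9.30 CPM in the heterozygous libraries and at 2.90, 2.43 and 2.29 CPM in the homozygous libraries. The homozygous libraries were low and close together, and the other libraries of the batch did not reach them (log2 fold change against flox -2.19 ± 0.186 SE, adjusted p = 2.13e-05 by edgeR). Gbp7, of the same family, was at 42.2, 32.3 and 31.5 CPM in flox, 33.2, 38.6 and 34.7 CPM in heterozygous and 18.6, 17.8 and 19.3 CPM in homozygous libraries (-0.95 ± 0.116 SE). Gbp2 was at 2.81, 2.01 and 2.11 CPM in flox, 2.02, 2.02 and 1.61 CPM in heterozygous and 0.323, 0.600 and 0.214 CPM in homozygous libraries (-2.58 ± 0.339 SE). For both genes the homozygous libraries formed a separate low group. Irgm1, an immunity-related GTPase that acts in autophagy, was at 36.7, 32 and 35.6 CPM in flox, 36.1, 37.4 and 37.3 CPM in heterozygous and 25.1, 23.4 and 18.9 CPM in homozygous libraries (-0.65 ± 0.0936 SE). Gvin1, a very large inducible GTPase, averaged 0.338 CPM after homozygous deletion and 1.29 CPM in flox (-1.91 ± 0.414 SE, edgeR adjusted p = 0.0042). The family thus fell by unequal amounts, with Gbp2 and Gbp3 changing most and Irgm1 least.

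Among the other antiviral effectors, 9 of the 12 tested fell. Parp14, an ADP-ribosyltransferase, had the lowest adjusted p of all members (7.61e-06 by edgeR). Its level was 26.7, 22.01 and 25.1 CPM in flox, 20.7, 22.8 and 21.9 CPM in heterozygous and 6.56, 5.78 and 3.85 CPM in homozygous libraries, a log2 fold change of -2.20 ± 0.158 SE. Every homozygous library was thus well below every other library of the batch, including the Vav1-Cre library at 21.5 CPM. Parp9, its partner enzyme, fell less, from 25.4, 19.8 and 22.5 CPM in flox to 13.9, 14.4 and 13.5 CPM in homozygous libraries (-0.72 ± 0.101 SE), with heterozygous libraries at 20.8, 23.9 and 22.3 CPM. Trim30a, a TRIM protein that limits inflammatory signalling, was at 18.8, 13.6 and 14.49 CPM in flox, 15.5, 18.8 and 15.3 CPM in heterozygous and 7.91, 7.62 and 7.55 CPM in homozygous libraries (-1.04 ± 0.138 SE). For both genes the flox and heterozygous libraries overlapped and the homozygous ones stood apart.

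Mx1, a dynamin-like GTPase that blocks virus replication, had the steepest fall by fold. It was at 2.20, 0.968 and 1.14 CPM in flox, 1.01, 1.60 and 0.842 CPM in heterozygous and 0.107, 0.0529 and 0.0917 CPM in homozygous libraries. The homozygous values rest on 5, 3 and 3 counts, set against 139, 41 and 68 counts in flox (log2 fold change -4.12 ± 0.506 SE). Its paralog Mx2, annotated as a polymorphic pseudogene, fell from 55, 18 and 35 counts in flox to 0, 2 and 4 counts (-3.74 ± 0.705 SE). The low counts leave wide errors on both.

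Xaf1, a promoter of apoptosis, fell by 3.44 on the log2 scale (0.118 against 1.34 CPM). Rtp4, a chaperone of membrane receptors that also acts in antiviral defence, fell by 3.35 (0.195 against 1.95 CPM), and Ifi27l2a, a small mitochondrial protein, fell by 2.67 (0.0522 against 0.365 CPM). Bst2 (tetherin), which holds budding virions at the cell surface and is the most abundant member per length of exon, fell by only 0.45 ± 0.0963 SE, from a mean of 31.1 to 23.1 CPM. Of the 3 effectors that did not pass the test, Rsad2 (viperin) was at 0.352 against 0.925 CPM (edgeR adjusted p = 0.0828) with overlapping groups. Samd9l, which restricts translation, was at 10.1 against 8.71 CPM (log2 fold change 0.19 ± 0.169 SE). Cmpk2, a mitochondrial nucleotide kinase, was at 23.4 against 24.2 CPM (-0.07 ± 0.0846 SE). Ifi44 had 0 counts in the 3 homozygous libraries and at most 4 in any flox library, too few for a test.

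The sensors of foreign nucleic acid fell in 3 of 4. Dhx58 (LGP2) was at 6.04, 3.52 and 4.62 CPM in flox, 4.18, 5.88 and 4.40 CPM in heterozygous and 1.68, 1.46 and 1.71 CPM in homozygous libraries (log2 fold change -1.57 ± 0.236 SE). Its homozygous values were all below the lowest flox value. Ifih1 (MDA5), the sensor of long double-stranded RNA, fell from a mean of 17.5 to 11.6 CPM (-0.60 ± 0.0973 SE). Zbp1, which senses Z-form nucleic acid and triggers necroptosis, had 0, 9 and 0 counts after homozygous deletion and 42, 15 and 19 in flox (-2.83 ± 0.845 SE, edgeR adjusted p = 0.0208). Ddx58 (RIG-I), the sensor of short RNA with a 5' triphosphate, was at 9.23 against 9.21 CPM, a log2 difference of -0.02 ± 0.18 SE. Of the 3 RNA helicases here, Dhx58 and Ifih1 thus passed the test and Ddx58 did not.

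Of the transcription factors, Irf9 and Irf7 fell. Irf9, the DNA-binding subunit of ISGF3, was at 24.96, 18.1 and 21.5 CPM in flox, 21.97, 25.2 and 21.9 CPM in heterozygous and 11.4, 11.9 and 10.9 CPM in homozygous libraries (log2 fold change -0.94 ± 0.117 SE, adjusted p = 0.000182 by edgeR). All 3 homozygous libraries lay below the rest of the batch. Irf7, which amplifies type I interferon production, fell from a mean of 3.46 to 1.13 CPM (-1.65 ± 0.314 SE). Stat2 was at 24.7 against 29.4 CPM, with overlapping libraries and an edgeR adjusted p of 0.0608.

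In the ISG15 pathway Usp18, the protease that removes ISG15 and dampens receptor signalling, fell by 0.96 on the log2 scale (0.643 against 1.24 CPM). Herc6, the mouse ligase that attaches ISG15, fell by 0.51 (6.71 against 9.41 CPM). Isg15 itself, the ubiquitin-like modifier, had 0, 20 and 0 counts after homozygous deletion and 65, 14 and 38 in flox, and its groups overlapped (edgeR adjusted p = 0.0683). In the family that makes or resembles 2'-5' oligoadenylate synthetases, Oasl2 fell by 2.62 (0.294 against 1.85 CPM), Oasl1, which represses Irf7 translation, by 3.30 (0.0601 against 0.682 CPM) and Oas3 by 1.69 (0.361 against 1.15 CPM). Oas2 did not pass the test (0.535 against 0.914 CPM). Eif2ak2 (PKR), the kinase that stops translation on sensing double-stranded RNA, stood at 46.4, 52.1 and 53.7 CPM after homozygous deletion and 48.7, 43.4 and 48.8 CPM in flox (log2 fold change 0.09 ± 0.0973 SE). Among the IFIT proteins, which bind uncapped or unmethylated viral RNA, 0 of 3 passed the test: Ifit1 was at 0.192 against 0.511 CPM without overlap, Ifit2 at 9.30 against 10.6 CPM and Ifit3 at 0.145 against 0.326 CPM. Members that kept their level within the error, such as Eif2ak2, Cmpk2 and Ddx58, were thus expressed beside members that fell several-fold.

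**Figure D3:**
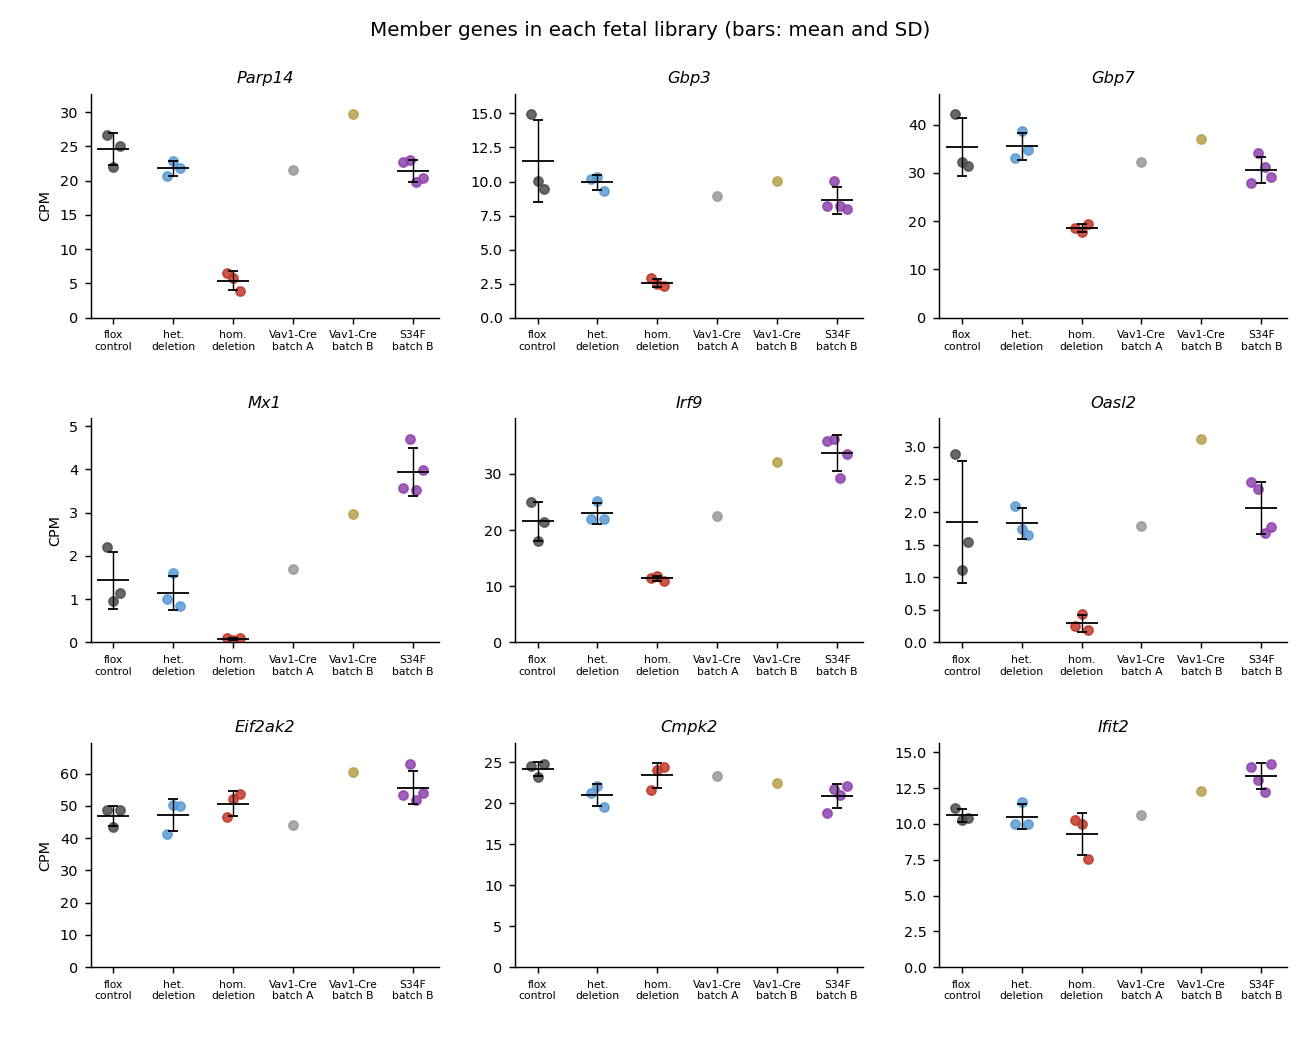
CPM (y axis) of 9 members in each fetal library (points), by genotype and batch (x axis), with the mean and SD of groups of 3 or 4. In the panels of Parp14, Gbp3, Gbp7, Mx1, Irf9 and Oasl2 the homozygous points lie below all others, and in those of Eif2ak2, Cmpk2 and Ifit2 they lie among them or partly among them.

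The flox control lacked Cre, so the homozygous libraries were also set beside the Vav1-Cre library of batch A. For all 24 called members the 3 homozygous libraries were below that library, as they were for 30 of the 35 tested members and for 37% of all genes tested. Replicate 3 of the flox control was the highest of its group in 31 of 36 members. Without it 22 members were called, all lower, and their median log2 fold change over all tested members was -0.91. In that run 5589 genes in all were called, against 5194 with it. This library also had the highest summed markers of its group for B cells (119.4 CPM), macrophages and monocytes (537.1) and neutrophils (318.5). The same held for plasmacytoid dendritic cells (253.1 CPM, of which Irf8 made up 236.2). The library had the lowest summed markers of its group for hepatocytes (98.1 CPM) and erythroid cells (172.1 CPM).

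Markers of other cell types moved with the homozygous deletion, where 2844 of all 12678 genes tested fell and 2350 rose. Hepatocyte markers fell in 9 of 9, and their summed level was 11.1 to 29.2 CPM against 98.1 to 609.2 CPM in flox. B cell markers fell in 4 of 4 (24.0 to 26.3 against 58.2 to 119.4 CPM). Plasmacytoid dendritic cell markers fell in 4 of 4 tested (40.0 to 53.6 against 168.7 to 253.1 CPM, with Klk1 at 0 in both groups). Most of this sum is Irf8, which is not particular to these cells and is counted again among the pathway genes below. Irf8 was at 236.2, 166.5 and 163 CPM in flox and 46.9, 51.8 and 38.6 CPM in homozygous libraries. Ccr9, Cox6a2 and Spib, which fell as well, reached at most 9.43 CPM in flox. Macrophage and monocyte markers fell in 7 of 9, with Vcam1 higher (151 to 210.5 against 406.7 to 537.1 CPM), and neutrophil markers rose in 3 of 4 (659.7 to 1293 against 134.8 to 318.5 CPM). Kit, on which the cells were sorted, was lower as well (283.6 against 538.9 CPM, edgeR adjusted p = 8.11e-05). With a hepatocyte score as a covariate 18 members were called lower, where 1203 genes in all were called. The median log2 fold change over the members was -2.26. The score was 2.36, 4.98 and 4.35 in flox and 0.547, -0.427 and -1.33 in homozygous libraries, without overlap. This fit therefore separates the score poorly from genotype, and its fold changes are not read as adjusted for hepatocytes. The part of the other cell types in the members' fall was not tested.

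Other genes of the pathway changed unevenly. Of 31 receptor, kinase and signalling genes tested, 14 fell and 3 rose (Traf3, Myd88 and Jak1), with a median log2 fold change of -0.17. Over all 12678 genes tested, 2844 fell and 2350 rose. Irf5 (11.6 against 53.5 CPM), Irf8 (45.8 against 188.6 CPM), a factor of dendritic and monocytic cells, and Tlr9 (1.27 against 9.24 CPM), an endosomal DNA sensor, fell most clearly. Ifnar2, a subunit of the type I receptor, fell from 111.2 to 72.9 CPM (log2 fold change -0.63 ± 0.0795 SE), and Irf1 from 41.2 to 23.2 CPM. Of 40 further interferon-inducible genes tested, 23 fell and 1 rose (Cd274). Those that fell include Slfn8 (0.663 against 4.81 CPM), Lgals3bp (2.77 against 14.3 CPM), Sp100 (3.49 against 10.9 CPM), Ifitm3 (24.7 against 48.1 CPM) and Psmb8, an immunoproteasome subunit (59.0 against 100.9 CPM). Of 21 listed interferon ligand genes, 11 had a row and 0 had enough counts for a test in any comparison, and their summed level reached at most 0.671 CPM in any of the 32 libraries.

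Against the heterozygous deletion, homozygous deletion called 24 members lower and 0 higher, where 22.4% of all genes tested were lower. The median log2 fold change was -1.13. This comparison shares the homozygous libraries with the one above. Stat2 was called in addition (24.7 against 32.4 CPM, -0.42 ± 0.104 SE, edgeR adjusted p = 0.00841) and Zbp1 was not (edgeR adjusted p = 0.0581).

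Heterozygous deletion against flox asked whether loss of 1 allele moves these genes. None of the 35 members tested was called (0 by edgeR and 0 by DESeq2), where 0.0316% of all genes were called, and 3 members (8.57%) had an unadjusted p under 0.05, as did 8.83% of all genes. Ifih1 was at 14.2, 14.8 and 13.6 CPM in the heterozygous and 18.6, 16.6 and 17.1 CPM in the flox libraries (log2 fold change -0.29 ± 0.0961 SE, edgeR adjusted p = 0.419). Cmpk2 was at 21.3, 22.1 and 19.5 against 24.6, 23.2 and 24.9 CPM (-0.20 ± 0.0843 SE). In both genes the groups did not overlap, at a size that the correction over all genes does not separate from noise. Ifit3 was at 0.0348, 0.105 and 0.138 CPM against 0.458, 0.118 and 0.401 CPM (-1.77 ± 0.604 SE), with overlapping groups. The libraries did not overlap in 3 members, all lower, against 7.71% of all genes. The median log2 fold change was -0.01, and 20 members lay below 0 and 15 above.

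The S34F libraries of batch B were set beside the 1 Vav1-Cre library of that batch, with the spread pooled over all 15 fetal libraries, so that the single control is assumed to vary like the other groups. By edgeR's test 0 of 35 members were called, where 0.295% of all 14938 genes tested were, 2 members (5.71%) had an unadjusted p under 0.05, as did 10.9% of all genes, and DESeq2 called 0 members. Herc6 was at 8.33, 9.45, 8.91 and 9.08 CPM with S34F and 13.1 CPM in the control (log2 fold change -0.54 ± 0.163 SE, edgeR adjusted p = 0.212). Parp14 was at 22.7, 23.0, 19.9 and 20.3 against 29.7 CPM (-0.46 ± 0.175 SE, edgeR adjusted p = 0.328), and Stat2 at 32.3, 33.7, 33.6 and 33.8 against 27.8 CPM (0.27 ± 0.128 SE, edgeR adjusted p = 0.467). All 4 S34F libraries lay on 1 side of the control in these 3 genes. Over the members, all 4 lay below the control in 11 and above it in 7, against 28% and 26.9% of all genes. Mx1 and Mx2 were at 3.52 to 4.71 and 1.24 to 1.90 CPM with S34F and at 2.97 and 1.04 CPM in the control. Their levels in batch A were lower, at 1.69 and 0.668 CPM in its Vav1-Cre library, so genotypes of different batches are not compared.

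The adult groups show the same genes in marrow of U2af1(flox/S34F) mice at 3 doxycycline doses and of the untreated mice. The untreated group had the highest mean of the 4 adult groups in 26 of 36 members, and the 1250 ppm group the lowest in 29. In 23 members the means rose in the order 1250, 2500 and 10000 ppm. All 36 members passed the filter. Against the untreated mice, 21 members were lower and 0 higher at 1250 ppm, where 4.66% of all 13338 genes tested were lower and 11.4% changed in either direction. At 2500 ppm 3 members were lower (background 0.142%), and at 10000 ppm 1 was lower (background 0.315%). With the 3 doses averaged, 12 members were lower, where 1.18% of all genes were. They were Eif2ak2, which passed at no single dose, and Dhx58, Gvin1, Herc6, Ifih1, Ifit1, Irf9, Irgm1, Oasl2, Parp9, Trim30a and Xaf1. These 4 comparisons share the untreated libraries. The number of members with an unadjusted p under 0.05 was 27 at 1250 ppm, 21 at 2500 ppm and 16 at 10000 ppm, where 30.5%, 15.2% and 22.3% of all genes had one. The median log2 fold changes were -0.73, -0.54 and -0.30, against at most 0.0083 over all genes.

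**Figure D4:**
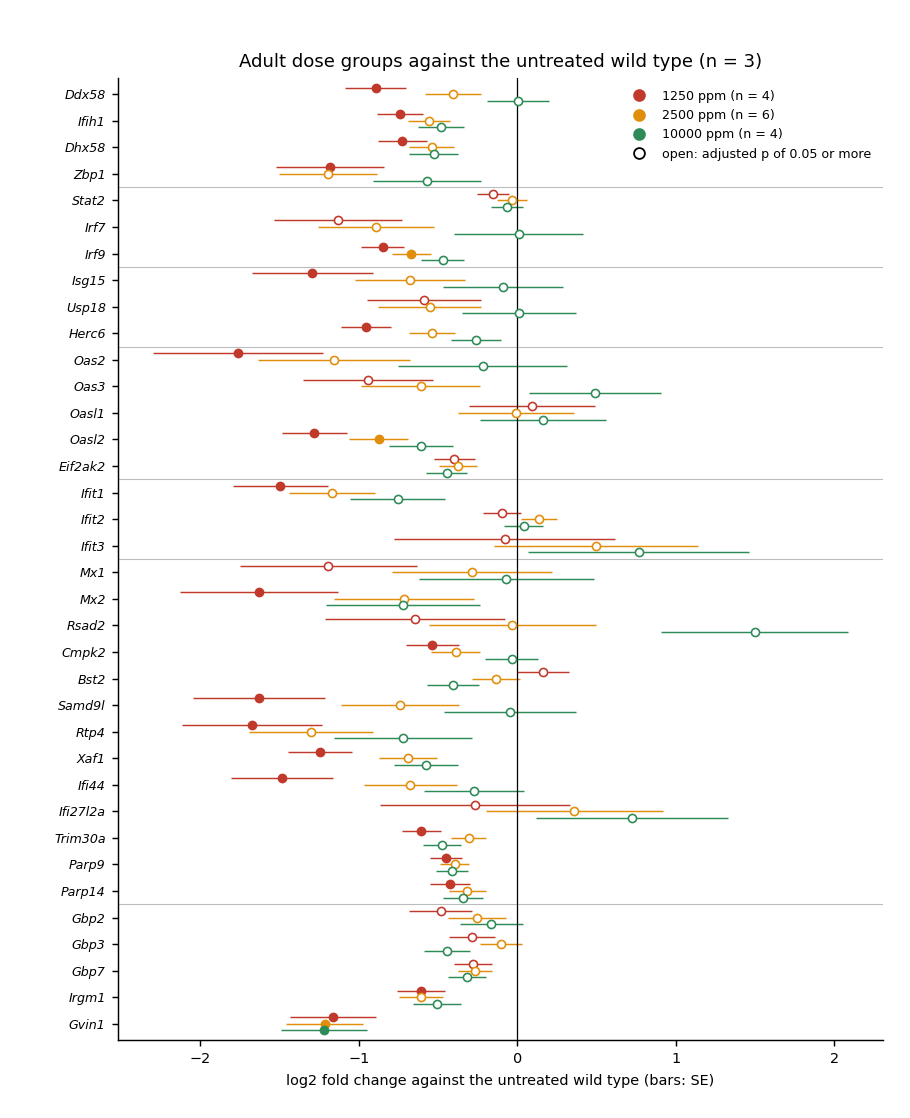
Log2 fold change (x axis, with SE bars) of each member (y axis, grouped by role) at 1250, 2500 and 10000 ppm doxycycline against the 3 untreated libraries; filled points passed an adjusted p of 0.05. The 21 filled red points (1250 ppm) lie left of 0, and 3 points are filled at 2500 ppm and 1 at 10000 ppm.

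All 4 sensors were lower at 1250 ppm. Ifih1 was at 53.1, 62.9 and 83.7 CPM without treatment, 32.7, 43.2, 42.8 and 40.4 CPM at 1250 ppm, 39.0 to 51.9 CPM (median 44.6) at 2500 ppm and 48.0, 42.1, 49.5 and 52.9 CPM at 10000 ppm (log2 fold change at 1250 ppm -0.74 ± 0.144 SE, edgeR adjusted p = 0.0105). Every dosed library lay below the lowest untreated one. Ddx58 was at 37.7, 41.3 and 44.5 CPM untreated, 20.3, 25.6, 22.04 and 20.4 CPM at 1250 ppm, 22.3 to 41.7 CPM (median 32.2) at 2500 ppm and 49.2, 50.2, 31.7 and 35.4 CPM at 10000 ppm. Its 1250 ppm libraries were all below the untreated range (-0.89 ± 0.194 SE), while those at 10000 ppm surrounded it. Dhx58 was at 19.5, 26.96 and 27.7 CPM untreated, 14.7, 13.5, 14.3 and 17.2 CPM at 1250 ppm, 15.01 to 20.6 CPM (median 16.6) at 2500 ppm and 18.1, 20.7, 16.8 and 13.7 CPM at 10000 ppm (-0.73 ± 0.155 SE at 1250 ppm). Zbp1 averaged 2.05 CPM at 1250 ppm and 4.66 CPM untreated (-1.18 ± 0.34 SE).

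Irf9 was lower at 1250 and at 2500 ppm. It was at 53.5, 53.8 and 68.5 CPM untreated, 30.1, 34.8, 36.2 and 28.7 CPM at 1250 ppm, 31.1 to 46.6 CPM (median 35.9) at 2500 ppm and 41.0, 40.0, 39.1 and 50.7 CPM at 10000 ppm. No dosed library reached the untreated range. The log2 fold changes were -0.85 ± 0.136 SE at 1250 ppm (edgeR adjusted p = 0.00669), -0.67 ± 0.124 SE at 2500 ppm (edgeR adjusted p = 0.043) and -0.47 ± 0.136 SE at 10000 ppm (edgeR adjusted p = 0.0728). Stat2 was at 39.8 CPM at 1250 ppm against 44.4 CPM and Irf7 at 4.13 against 9.05 CPM, and neither passed the test.

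Oasl2, an OAS-like protein, had the lowest adjusted p at 1250 ppm (0.00663 by edgeR). It was at 13, 18.8 and 23.7 CPM untreated, 6.95, 8.49, 6.57 and 8.39 CPM at 1250 ppm, 7.72 to 12.6 CPM (median 10.2) at 2500 ppm and 10.5, 14.0, 10.2 and 14.48 CPM at 10000 ppm. The log2 fold change was -1.28 ± 0.203 SE at 1250 ppm and -0.88 ± 0.184 SE at 2500 ppm (edgeR adjusted p = 0.0471). At 10000 ppm its libraries overlapped the untreated ones. Oas2 was lower at 1250 ppm (1.98 against 6.71 CPM), and Oas3 (8.21 against 15.8 CPM), Oasl1 (6.96 against 6.54 CPM) and Eif2ak2 (68.8 against 90.8 CPM, edgeR adjusted p = 0.0531) did not pass. Of the ISG15 pathway, Isg15 (1.12 against 2.76 CPM) and Herc6 were lower at 1250 ppm and Usp18 (1.78 against 2.69 CPM) did not pass. Herc6 was at 18.8, 20.6 and 18.9 CPM untreated, 8.95, 11.2, 10.1 and 9.66 CPM at 1250 ppm, 10.7 to 17.4 CPM (median 13.2) at 2500 ppm and 19.3, 16.5, 16.1 and 13.7 CPM at 10000 ppm (-0.96 ± 0.157 SE at 1250 ppm). Its untreated and 1250 ppm libraries were each tightly grouped and far apart.

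Ifit1 was lower at 1250 ppm, at 0.677, 1.04, 0.594 and 0.867 CPM against 1.04, 2.73 and 2.96 CPM (log2 fold change -1.50 ± 0.301 SE). It was at 0.858 to 1.11 CPM (median 1.01) at 2500 ppm and at 1.49, 1.15, 1.11 and 1.63 CPM at 10000 ppm. Replicate 1 of the untreated group lay near the dosed libraries, and the other untreated libraries stood apart from them. Ifit2 (38.5 against 41.2 CPM) and Ifit3 (0.194 against 0.208 CPM) did not pass at 1250 ppm.

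Of the other antiviral effectors, 9 of 13 were lower at 1250 ppm. Xaf1 was at 5.61, 7.49 and 7.29 CPM untreated, 2.55, 3.57, 3.19 and 2.14 CPM at 1250 ppm, 3.72 to 4.56 CPM (median 4.25) at 2500 ppm and 3.37, 4.12, 5.07 and 5.83 CPM at 10000 ppm (log2 fold change -1.24 ± 0.203 SE at 1250 ppm, edgeR adjusted p = 0.00669). The groups at 1250 ppm, 2500 ppm and without treatment did not overlap with each other. Trim30a was at 59.9, 67.5 and 55.4 CPM untreated, 36.5, 47.5, 37.6 and 38.2 CPM at 1250 ppm, 41.0 to 56.0 CPM (median 50.8) at 2500 ppm and 43.8, 38.8, 50.3 and 43.9 CPM at 10000 ppm (-0.61 ± 0.122 SE at 1250 ppm). Ifi44, a protein of interferon-induced tubular aggregates, was at 0.542, 1.30 and 1.47 CPM untreated and 0.558, 0.409, 0.305 and 0.296 CPM at 1250 ppm (-1.48 ± 0.324 SE), with 1 library on each side overlapping. It was at 0.591 to 0.813 CPM (median 0.68) at 2500 ppm and 0.791, 0.895, 0.817 and 1.19 CPM at 10000 ppm. Samd9l fell from a mean of 59.8 to 19.3 CPM (-1.63 ± 0.416 SE). Rtp4 (1.15 against 3.69 CPM), Mx2 (0.225 against 0.707 CPM), Parp9 (36.2 against 49.6 CPM), Parp14 (58.9 against 79.2 CPM) and Cmpk2 (27.6 against 40.2 CPM) were also lower. Mx1, whose promoter drives the Cre transgene, was at 0.411 against 0.939 CPM without passing (edgeR adjusted p = 0.161), as were Rsad2 (2.41 against 3.79 CPM), Ifi27l2a (0.738 against 0.888 CPM) and Bst2 (49.1 against 44.0 CPM).

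Among the GTPases, Gvin1 was lower at every dose. It was at 11.9, 9.02 and 10.9 CPM untreated, 5.84, 5.35, 2.95 and 4.82 CPM at 1250 ppm, 3.08 to 6.94 CPM (median 4.59) at 2500 ppm and 4.38, 3.77, 3.83 and 6.45 CPM at 10000 ppm. The 14 dosed libraries all lay below the 3 untreated ones, and the dose groups overlapped. The log2 fold changes were -1.16 ± 0.271 SE, -1.22 ± 0.244 SE and -1.22 ± 0.271 SE from the lowest dose to the highest, with edgeR adjusted p of 0.0181, 0.045 and 0.0397. Irgm1 was lower at 1250 ppm (45.5 against 69.5 CPM, -0.61 ± 0.153 SE). Gbp2 (12.3 against 17.3 CPM), Gbp3 (87.2 against 107 CPM) and Gbp7 (61.9 against 75.2 CPM) did not pass at 1250 ppm, although their libraries did not overlap with the untreated ones. The 24 members without overlap at 1250 ppm, all lower, compare with 17.7% of all genes.

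The untreated libraries differed among themselves. Replicate 3 was the highest of the 3 in 24 of 36 members and the highest of all 17 adult libraries in 14, and replicate 1 was the lowest of the 3 in 25. Without replicate 2 of the untreated group, the number called lower at 1250 ppm was 5, without replicate 1 it was 12 and without replicate 3 it was 13. Without 1250 ppm replicate 1 or 5 it was 12 and without replicate 4 it was 13. The 5 genes Herc6, Ifih1, Irf9, Oasl2 and Xaf1 stayed called in every alternative run for this comparison. No member called at 2500 ppm, at 10000 ppm or for the averaged doses did so. Without untreated replicate 2 or 3 the averaged doses called 0, and at 2500 and 10000 ppm leaving out single libraries gave 0 to 5 and 0 to 4. At 2500 ppm the count was 0 without 2500 ppm replicate 2, 3 or 5 or untreated replicate 2 or 3, and 5 without 2500 ppm replicate 1. At 10000 ppm it was 0 without 10000 ppm replicate 1 or 2 or any untreated library, 4 without 10000 ppm replicate 3 and 3 without replicate 4.

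B cell markers were higher at 1250 ppm than without treatment in 4 of 4 (summed 38.1 to 50.02 against 18.2 to 25.4 CPM). Over all 13338 genes tested, 902 were higher. Of the macrophage and monocyte markers, 4 of 9 were higher (C1qa, C1qb, C1qc and Cd5l), while the summed list was lower (930.6 to 1117 against 1744 to 1936 CPM). The summed neutrophil markers were at 601.4 to 1045 CPM at 1250 ppm and 929.3 to 9296 CPM untreated. Kit did not pass (456.4 against 565.9 CPM). The part of these cells in the members' levels was not tested. Of 44 further interferon-inducible genes tested, 8 were lower and 1 (Bst1) higher at 1250 ppm, with Ddx60 (4.02 against 12.7 CPM), Irgm2 (16.5 against 27.3 CPM), Sp100 (105.2 against 178.9 CPM) and the peptide transporter Tap1 (210.9 against 279.6 CPM) among the lower ones. Of 31 pathway genes, 4 were lower and 0 higher, among them Jak2 (82.6 against 135.1 CPM) and Ifngr1, a receptor subunit for interferon gamma (449.4 against 651.4 CPM). The median over these 31 was 0.02, near that of all genes.

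**Figure D5:**
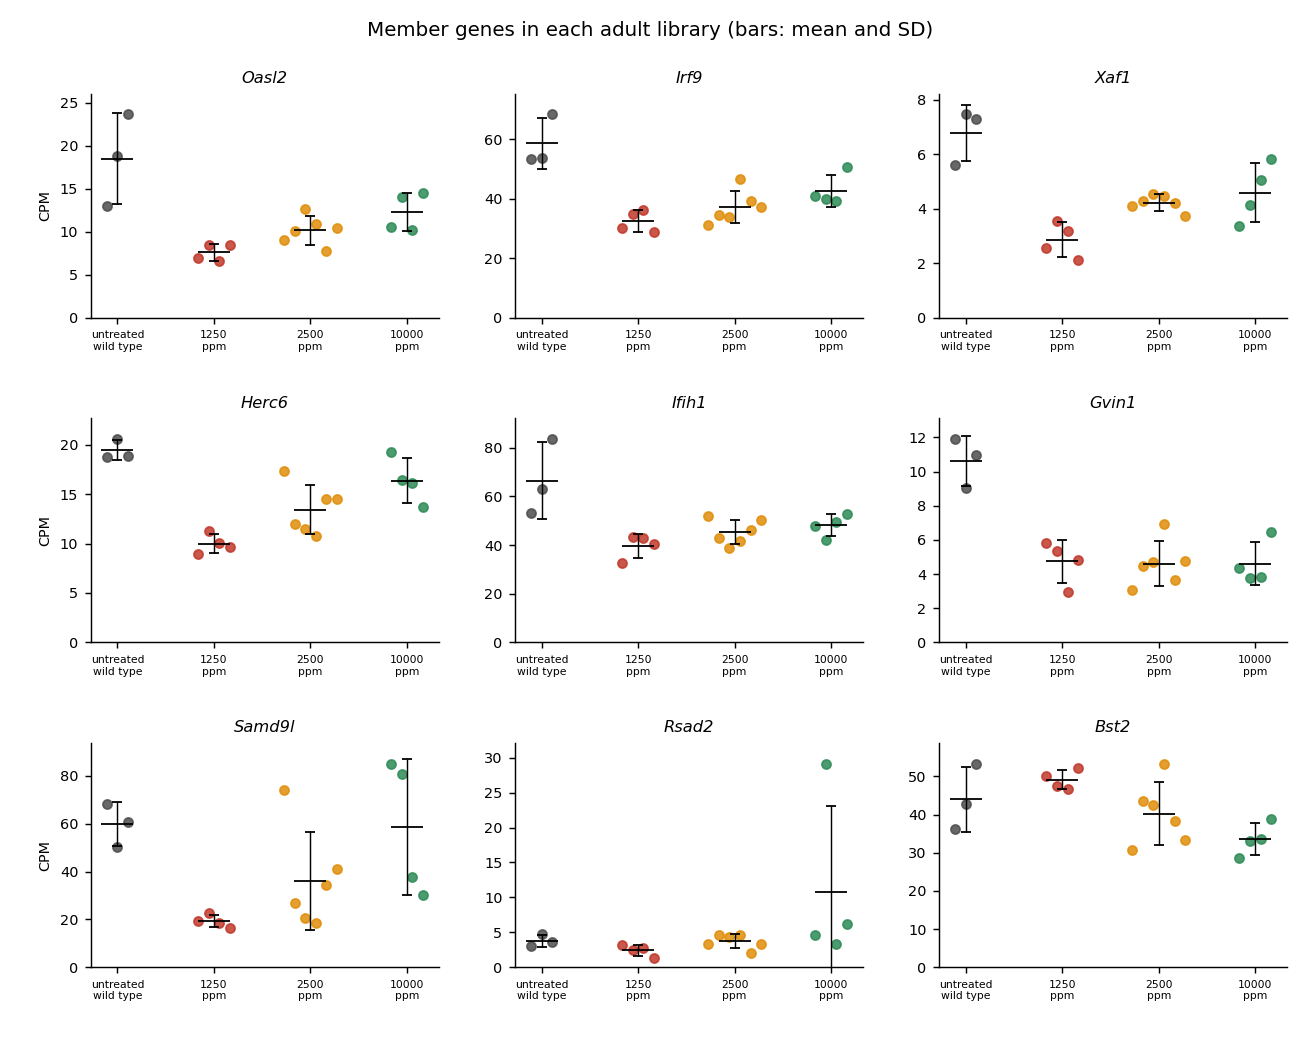
CPM (y axis) of 9 members in each adult library (points), by group (x axis), with the mean and SD of each group. Oasl2, Irf9, Xaf1, Herc6 and Ifih1 are highest without treatment and lowest at 1250 ppm, Gvin1 is low at all 3 doses, and a single 10000 ppm library lifts the Rsad2 mean.

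Between the doses, where all mice had the same genotype and pIpC, 13 members were higher and 1 lower at 10000 than at 1250 ppm. The background was 7.53% of genes higher, 10.6% lower and 18.1% in either direction, and the median log2 fold change was 0.61 over the members and 0.02 over all genes. The libraries did not overlap in 10 members that were higher, against 7.83% of all genes. Ddx58 led with 41.6 against 22.1 CPM (log2 fold change 0.90 ± 0.183 SE, edgeR adjusted p = 0.00624), followed by Herc6 (16.4 against 9.98 CPM, 0.70 ± 0.147 SE), whose values by library are given above for both genes. Samd9l was at 85.2, 80.7, 37.7 and 30.3 CPM at 10000 ppm, 18.6 to 74.0 CPM (median 30.6) at 2500 ppm and 19.2, 22.7, 18.6 and 16.6 CPM at 1250 ppm (1.58 ± 0.394 SE). Replicates 1 and 2 at 10000 ppm were far above replicates 3 and 4, and all 4 were above the 1250 ppm libraries.

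Rsad2 was at 4.65, 29.2, 3.31 and 6.12 CPM at 10000 ppm and 3.20, 2.43, 2.68 and 1.35 CPM at 1250 ppm (log2 fold change 2.14 ± 0.545 SE), and replicate 2 was far above the other 3. Oas3 was at 23.8, 43.7, 8.74 and 13.5 CPM against 8.42, 8.51, 9.01 and 6.89 CPM (1.43 ± 0.39 SE), with replicate 3 inside the 1250 ppm range. Isg15 was at 1.83, 4.48, 1.58 and 2.65 CPM against 1.18, 1.32, 1.17 and 0.825 CPM (1.20 ± 0.36 SE), without overlap. The 2500 ppm libraries lay at 2.09 to 4.67 CPM (median 3.85) for Rsad2, 7.42 to 13.8 CPM (median 10.3) for Oas3 and 1.28 to 2.53 CPM (median 1.54) for Isg15. Ifi44 (0.924 against 0.392 CPM), Oasl2 (12.3 against 7.60 CPM), Xaf1 (4.60 against 2.86 CPM), Cmpk2 (39.6 against 27.6 CPM), Oas2 (5.85 against 1.98 CPM), Irf7 (9.22 against 4.13 CPM) and Irf9 (42.7 against 32.4 CPM) were also higher. Bst2 went the other way, at 28.6, 33.1, 33.7 and 38.9 CPM at 10000 ppm, 30.7 to 53.4 CPM (median 40.4) at 2500 ppm and 50.02, 47.5, 46.7 and 52.3 CPM at 1250 ppm (-0.57 ± 0.153 SE, edgeR adjusted p = 0.0193). Its 10000 and 1250 ppm libraries did not overlap.

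Replicates 1 and 2 at 10000 ppm also had the highest neutrophil markers of their group. The summed neutrophil markers were at 31240 and 35860 CPM in them and at 4959 and 664.9 CPM in replicates 3 and 4, against 601.4 to 1045 CPM at 1250 ppm. The markers of neutrophils (4 of 4) and of erythroid cells (2 of 2) were higher at 10000 than at 1250 ppm, as was Kit (mean 625.4 against 456.4 CPM, edgeR adjusted p = 0.0458). The erythroid markers were high in replicate 2 alone, with Hbb-bt at 9.58, 428.8, 7.76 and 9.79 CPM and Alas2 at 3.21, 120, 1.25 and 2.84 CPM in replicates 1 to 4. Of the T and NK markers, Cd3e and Cd8a were also highest of the group in replicate 2 (2.27 and 2.62 CPM). Rsad2 and Oas3 were highest in the same library. The summed T and NK markers were not, at 336.6, 279.4, 355 and 185.1 CPM in replicates 1 to 4. Of the 4 of these markers tested, 1 was higher at 10000 than at 1250 ppm. The part of these cells in the members' levels was not tested. With both libraries left out, 2 members stayed called, Xaf1 (log2 fold change 0.95, edgeR adjusted p = 0.0276) and Ifi44 (1.37, edgeR adjusted p = 0.0451). Of the calls lost, the log2 fold change was 0.49 for Irf9 and 0.72 for Oasl2, close to or above the values with all libraries. It was 0.60 for Herc6, 0.62 for Ddx58, 0.93 for Isg15 and -0.41 for Bst2, each smaller in size by less than 1.5 times. It dropped to 0.24 for Oas2, 0.46 for Oas3, 0.20 for Cmpk2, 0.52 for Irf7, 0.84 for Samd9l and 0.99 for Rsad2, each lower by over 1.5 times. Without 10000 ppm replicate 2 alone 6 members were called and without replicate 1 alone 9. Without 1250 ppm replicate 1, 4 or 5 the number was 6, 9 or 4. Of the further interferon-inducible genes 9 of 44 were higher and 1 (Psmb10) lower, with Ddx60 (11.4 against 4.02 CPM), Ube2l6, which hands ISG15 to its ligase (34.7 against 13.4 CPM), and Trim21 (25.1 against 18.6 CPM) among the higher. Of the 31 pathway genes 4 were higher, Irf2, Jak2, Jak1 and Tlr7, and 0 lower.

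The middle dose differed less from either end. At 2500 against 1250 ppm 0 members were called by edgeR, where it called 1.91% of all genes. By the same test 9 members (25%) had an unadjusted p under 0.05, as did 20.7% of all genes. DESeq2 called 3 of the 35 members it tested, and 1065 genes in all. Xaf1 (4.23 against 2.86 CPM, edgeR adjusted p = 0.091), Herc6 (13.4 against 9.98 CPM) and Ddx58 (31.2 against 22.1 CPM) came nearest. At 10000 against 2500 ppm 0 members and 0 genes in all were called by edgeR (background 0%), DESeq2 called 0 members, and 7 members (19.4%) had an unadjusted p under 0.05, as did 10.8% of all genes. Rsad2 (10.8 against 3.72 CPM) and Oas3 (22.4 against 10.4 CPM) were higher by mean with overlapping libraries. Gbp3 was at 58.4, 73.9, 89.3 and 94.4 CPM at 10000 ppm and 81.4 to 118 CPM (median 98.2) at 2500 ppm (edgeR adjusted p = 0.348).

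The fetal homozygous deletion and the adult 1250 ppm comparison share no library. Their called members had 14 genes in common, all lower in both, which are 58.3% of the 24 called in the fetal liver and 66.7% of the 21 called in the marrow. They are the sensors Ifih1, Dhx58 and Zbp1, the factor Irf9, and Herc6, Oasl2, Mx2, Rtp4, Xaf1, Trim30a, Parp9, Parp14, Irgm1 and Gvin1. Of all 36 members 21 (58.3%) were called at 1250 ppm, so the overlap is what these call rates alone give, and it is listed only as a description. Gbp2, Gbp3, Gbp7, Mx1 and Irf7 were called in the fetal liver and not at 1250 ppm, and Ddx58, Samd9l, Cmpk2 and Ifit1 the reverse, but the difference between the 2 responses was not tested.

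Compared per kilobase of exon, the members spanned a wide range of levels. The fetal medians were highest for Bst2 (34.9 CPM per kb), Eif2ak2 (9.86), Irgm1 (6.21), Gbp7 (5.74) and Cmpk2 (5.31), and the adult medians for Bst2 (47.0 CPM per kb), Gbp3 (28.0), Eif2ak2 (13.4), Trim30a (11.6) and Gbp7 (10.95). The adult median was above the fetal one in 33 of 36 members and below it in 3 (Mx1, Mx2 and Rtp4). Tissue, stage and treatment differ together between these libraries, so this is a description of levels. Some counts may mix transcripts, because the use of strand in counting is not given in the sources used here. Exons overlap with another gene for Irf9 (Rnf31), Irf7 (Phrf1), Parp9 (Dtx3l), Dhx58 (Dhx58os), Usp18, Herc6, Oasl1, Eif2ak2, Rtp4, Parp14, Gbp2 and Gbp7, and reads of the OAS, IFIT, GBP and TRIM30 families can be shared between near copies.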

How the data were processed

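The authors deposited raw counts (whole numbers) for Ensembl genes, 1 column per library, from reads mapped with HISAT2 2.1.0 to GRCm38, per the labels' design text. The submitters also named DESeq2 and rMATS 4.1.0. The design text cautions that batch can confound fetal expression, so fetal genotypes are compared within a batch. The counting tool, annotation release, use of strand and gene filter are not given in the sources used here. Symbols and coordinates came from GENCODE M21 (27668 of 27728 IDs matched, 60 did not). U2af1 itself and Ly6a (Sca1) are not analysed here.

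Genes were kept with filterByExpr, scaled by TMM (trimmed mean of M values) and tested with edgeR 4.0.16 (R 4.3.3) quasi-likelihood fits: 1 of the 9 batch A libraries of the 3 deletion genotypes, 1 of all 15 fetal libraries for S34F, and 1 of all 17 adult libraries, with 11 comparisons in all. P-values were adjusted over all genes tested. CPM values use the library total times the TMM factor. On simulated counts the test recovered 66% of genes changed 2-fold and 86.6% of those changed 4-fold for homozygous deletion against flox (12678 genes). For 1250 ppm against untreated (13338 genes) it recovered 55% and 77%. At most 100 genes per fold size were changed and tested, where 41% and 11.4% of genes were called in the real comparisons. The adjustment then acts differently, so recovery in the real data can differ. Replicate pairs (45) all differed by more than counting error (chi-square divided by its degrees of freedom 3.85 to 522.4). The floor of 3 counts covers counting error only, since no molecular identifiers are named in the labels.

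The members, the other gene lists, the tests and the alternatives were chosen with earlier results of these data known. By the rule for named genes, all members are named, with values in every library for up to 10 called members per comparison, or for the 3 with the lowest p where none was called. Other genes are named from fixed lists, at most 6 per list and comparison by lowest adjusted p; Myd88, Jak1, Cd274, Bst1 and Psmb10 were named after their values were seen. Alternatives were DESeq2 1.42.0, RLE factors, no filter, a mean of at least 50 counts, a replicate block, only the compared groups, a hepatocyte covariate, a covariate for reads of the Y-linked gene Gm29650 and leaving out each library. Leaving out 10000 ppm replicates 1 and 2 together was added after seeing the data.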

Additional observations from a re-analysis of the deposited data

Results flagged for a closer look

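In groups of 4 to 10 libraries, 144 combinations of member and group were checked for 1 library far from the rest, and 11 (7.64%) were found, where chance gives about 1 in 20. In the S34F group, Ddx58 was low in replicate 3 (7.49 CPM, others 9.78 to 10.03) and Stat2 in replicate 1 (32.3 CPM, others 33.6 to 33.8). Replicate 2 of that group was high for Oas3 (3.13 CPM, others 1.63 to 1.80), Trim30a (23.7 CPM, others 18.8 to 19.2) and Gbp3 (10.1 CPM, others 8.02 to 8.17). Ifi44 was at 0 CPM in S34F replicate 4 and at 0.0296 to 0.0323 CPM in the others, where a single count sets the value.

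In the adults, 1250 ppm replicate 3 was high for Trim30a (47.5 CPM, others 36.5 to 38.2) and replicate 5 for Gbp3 (93.6 CPM, others 84.6 to 85.6). Gbp7 was high in 2500 ppm replicate 4 (77.3 CPM, others 56.3 to 62.7). At 10000 ppm, Irf9 was high in replicate 4 (50.7 CPM, others 39.1 to 41.0) and Rsad2 in replicate 2 (29.2 CPM, others 3.31 to 6.12).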

How the results depend on the processing

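The fetal counts of called members kept within 1.5 times their value under every alternative run: 18 to 27 for homozygous deletion against flox (21 to 24 with single libraries left out, 22 with a replicate block) and 19 to 25 against heterozygous deletion (20 to 23 and 19). The count stayed 0 for heterozygous deletion and for S34F. No called member changed direction in any comparison. Against flox, 16 of the 24 called stayed called throughout. For the adults, 1250 ppm against untreated (21) gave 8 with a replicate block and 5 to 18 with single libraries left out. It gave 13 with a covariate for any reads of the Y-linked gene Gm29650. Among the adults such reads were missing only in untreated replicate 3. The total of that library over Y-linked genes, 1.81 CPM, was within the adult range of 1.12 to 2.42 CPM. The covariate therefore marks that library alone. Its adult runs nearly repeat those without untreated replicate 3 and are no adjustment for sex. At 2500 ppm (3) the count was 0 with a mean of at least 50 counts, with the Y-linked covariate and with only the compared groups, 12 by DESeq2 and 0 to 5 with single libraries left out. At 10000 ppm (1) it was 0 under those 3 settings and without replicates 1 and 2, 8 by DESeq2 and 0 to 4 with single libraries left out. The averaged doses (12) gave 7 with a replicate block, 0 with the Y-linked covariate and 0 to 12 with single libraries left out. For 10000 against 1250 ppm (14) it was 5 with a replicate block, 2 without replicates 1 and 2, 6 with only the compared groups and 4 to 14 with single libraries left out. For 2500 against 1250 ppm (0) DESeq2 gave 3, and leaving out 2500 ppm replicate 4 gave 2 (range 0 to 2). The causes were not tested. The number of genes called over the whole table also moved by over 1.5 times: for homozygous deletion against flox from 5194 to 1203 with the hepatocyte covariate, for heterozygous deletion from 4 to 98 by DESeq2, 230 without a filter, 0 with a replicate block, the hepatocyte covariate or only the compared groups and 0 to 269 with single libraries left out, and for S34F from 44 to 272 by DESeq2, 225 with only batch B, 187 without a filter, 0 with a replicate block and 8 to 16 with single libraries left out. Against untreated it went from 1524 to 438 with a replicate block, 702 without a filter, 3165 with only the compared groups, 2456 by DESeq2 and 68 to 1445 with single libraries left out (68 without untreated replicate 2) at 1250 ppm. At 2500 ppm it went from 65 to 557 by DESeq2, 121 with a replicate block, 7 with a mean of at least 50 counts, 4 with only the compared groups, 1 with the Y-linked covariate and 0 to 163 with single libraries left out. At 10000 ppm it went from 169 to 1055 by DESeq2, 87 with that mean, 8 without replicates 1 and 2, 1 with only the compared groups, 0 with the Y-linked covariate and 0 to 816 with single libraries left out (0 without untreated replicate 2 or 3). For the averaged doses it went from 343 to 1170 by DESeq2, 190 without a filter, 6 with the Y-linked covariate and 1 to 659 with single libraries left out (1 without untreated replicate 2). For 10000 against 1250 ppm it went from 2420 to 1184 with a replicate block, 1533 without a filter, 1052 with only the compared groups, 769 without replicates 1 and 2 and 1118 to 2809 with single libraries left out. For 2500 against 1250 ppm it went from 255 to 1065 by DESeq2, 463 with the Y-linked covariate, 153 with RLE factors, 0 without a filter or with a replicate block and 0 to 926 with single libraries left out. For 10000 against 2500 ppm it went from 0 to 52 by DESeq2 and to at most 20 with single libraries left out. Whether equal replicate numbers mark paired libraries is not given in the sources used here. The correlation of deviations passed 0.1 in 3 of 7 same-numbered fetal pairs and 6 of 20 differently numbered ones. In the adults it did so in 7 of 19 and 32 of 87. Between 10000 and 2500 ppm it was 0.607, 0.499, -0.373 and 0.698 for replicates 1 to 4. A differently numbered pair of these 2 groups reached 0.555, so pairing there was not settled. The 10 members with 3 counts or fewer in at least 1 fetal library (Mx1, Mx2, Xaf1, Zbp1, Oasl1, Isg15, Ifit1, Ifit3, Ifi27l2a and Ifi44) are limited by depth there.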
